A study of Mus musculus with 23 samples.

Results

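Ovaries of female CAST/EiJ mice, an inbred strain derived from wild Mus musculus castaneus, were compared with ovaries of C57BL/6J, the standard laboratory strain, after both had been fed the 44% fat diet. The libraries were chosen by the strain and diet named in their titles, which gave 8 of the 23 RNA-seq libraries of the series, 4 of each strain. The labels name no engineered allele and no treatment beyond the diet, which was started at 6 weeks of age, and ovaries were taken at 15 weeks. Fiber was part of both the 44% fat diet and the 10% fat control diet. Sugar was also high in the former, and effects of sugar and of fat cannot be told apart. The labels give no stage of the estrous cycle. They also do not tie libraries to separate animals, and the p-values below therefore measure only the spread between libraries. Polyadenylated RNA was sequenced in paired 100-base reads. Each strain's 4 libraries carry identifiers of 3 number series, 1 library from series 76, 2 from series 82 and 1 from series 90, and these series may be batches, which the labels leave unsaid. GRCm38, the genome build named for the series, is the C57BL/6J genome, and how reads of CAST/EiJ were matched to it is not given in the sources used here.

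The ovary holds growing follicles, in which granulosa cells surround an oocyte and theca cells lie outside them, and corpora lutea, the progesterone-secreting bodies that form after ovulation. Macrophages, lymphocytes and vessels are spread through the stroma. Inbred strains of different subspecies differ in many alleles of immune genes: interferons induce a large set of antiviral genes through STAT and IRF factors, the immunity-related GTPases attack vacuoles of intracellular parasites, and the major histocompatibility complex (MHC) presents peptides to T cells. Because ovaries are a mixture of cells, fewer cells of a type and less RNA per cell cannot be told apart in any result below.

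Of 20189 genes that passed the filter on low counts, 5949 (29.5%) differed between the strains on 44% fat at an adjusted p under 0.05 (edgeR quasi-likelihood test with Benjamini-Hochberg adjustment). CAST/EiJ was higher in 2885 (14.3%) and lower in 3064 (15.2%). A difference of 2-fold or more was found in 2901 genes (14.4%), 1228 higher (6.08%) and 1673 lower (8.29%), and one of 10-fold or more in 692. The median fold of the differing genes was 1.96, and the median log2 fold change over all tested genes was -0.01, so a list of genes is read below against 29.5% differing and a median near 0. The 8 libraries held 34.3 to 45.85 M counts, and on the 1000 genes with the largest variance the first principal component (78.4%) separated all 4 libraries of one strain from all 4 of the other. C57BL/6J library 1 and library 2 were farthest apart on the second (8.8%). Summed oviduct epithelium markers were 226 to 299 CPM (counts scaled to the library total) in CAST/EiJ, and 746, 276, 460 and 235 CPM in C57BL/6J libraries 1 to 4. Summed white adipocyte markers were 872, 507, 292 and 218 CPM in CAST/EiJ and 1090, 235, 767 and 210 CPM in C57BL/6J. These sums thus varied among libraries of one strain, and what part the marked tissues had in single results was not tested. Without C57BL/6J library 1 and CAST/EiJ libraries 1 and 2, which earlier work on these data gave as high in adipocyte markers, 3642 genes differed. C57BL/6J library 3 was above CAST/EiJ library 2 by the sum given here, and without the 3 highest sums (C57BL/6J libraries 1 and 3 and CAST/EiJ library 1), a choice made after seeing the data, 3778 differed. Within series 82 alone, with 2 libraries of each strain, 2810 differed.

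**Figure D1:**
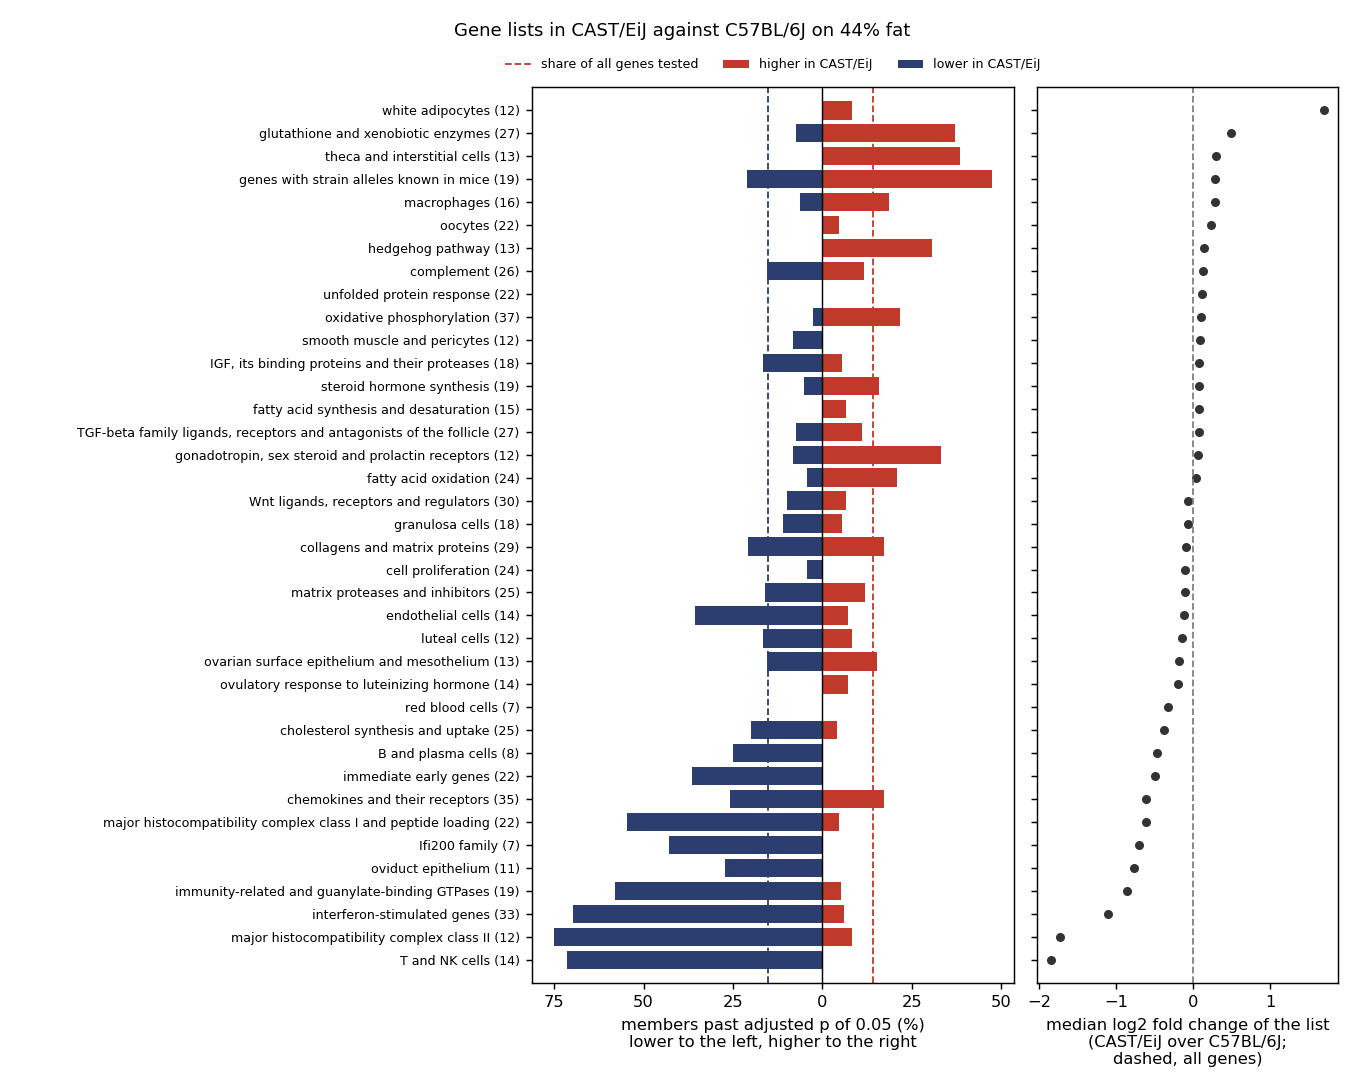
Gene lists with 7 or more tested members, CAST/EiJ against C57BL/6J on 44% fat. Bars give the percentage of tested members higher (right) or lower (left) in CAST/EiJ, dashed lines the percentages over all tested genes (14.3% and 15.2%), and the right panel each list's median log2 fold change; T and NK cell markers (10 of 14 lower) and MHC class II genes (9 of 12 lower) have the largest shares lower.

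Interferon-stimulated genes were mostly lower in CAST/EiJ ovaries. Of 33 tested, 23 were lower and 2 higher, the median log2 fold change was -1.11, and the libraries of the strains did not overlap in any of the 25, as in 6474 (32.1%) of all tested genes. The transcription factor genes of the pathway were among them. Stat2, which carries the type I interferon signal to the nucleus, had 39.6, 33.6, 32.3 and 36.0 CPM in CAST/EiJ libraries 1 to 4 and 60.3, 58.3, 65.3 and 59.2 CPM in C57BL/6J libraries 1 to 4, a log2 fold change of -0.78 (SE 0.0863, adjusted p = 7.24e-07). The strains did not overlap, and the spread within each was small. Irf9, the DNA-binding partner of STAT2, averaged 22.4 ± 2.61 against 48.4 ± 1.54 CPM (SD, n = 4 each). Ddx58, which encodes the RNA sensor RIG-I, had 38.5, 33.5, 24.6 and 33.2 CPM in CAST/EiJ and 58.3, 65.3, 65.9 and 70.7 CPM in C57BL/6J, a log2 fold change of -1.0 (adjusted p = 1.26e-06).

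In further genes of the response 1 CAST/EiJ library stood above the others. Oasl2, of the oligoadenylate synthetase family, had 17.7, 4.57, 5.22 and 5.97 CPM in CAST/EiJ and 68.6, 71.1, 64.5 and 67.5 CPM in C57BL/6J (log2 fold change -3.01, SE 0.387, adjusted p = 6.46e-06). Irf7, the factor that amplifies interferon production, had 9.10, 1.46, 1.35 and 2.22 CPM against 23.5, 16.2, 20 and 18.2 CPM (-2.45, adjusted p = 0.00143). CAST/EiJ library 1 was the highest of its group in 31 of the 33 interferon-stimulated genes. Without it, 29 of 33 were lower and 1 higher, with a median of -1.35, and single genes lay further apart: Oasl2 at -3.69, Irf7 at -3.53, Oas2 at -4.46 (from -3.74), Ifi44 at -4.84 (from -3.31), Rsad2 at -2.92 (from -2.15), Oas1a at -2.94 (from -2.16) and Ifit3 at -3.18 (from -2.01). Ifit3, which binds viral RNA with its relatives, missed the threshold without any of CAST/EiJ libraries 2, 3 or 4 (adjusted p = 0.0501, 0.0513 and 0.0533). Isg15, a ubiquitin-like modifier, had 5.62, 0.244, 0.505 and 0.749 CPM in CAST/EiJ and 5.75, 4.25, 5.67 and 4.78 CPM in C57BL/6J. Its groups overlapped through CAST/EiJ library 1, its adjusted p was 0.0882, and without that library it was 4.28e-05.

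The 2 genes higher in CAST/EiJ were the myxovirus resistance GTPases Mx2 and Mx1, which lie next to each other on chromosome 16. Mx2 (chr16:97535308-97560900, GRCm38) had 84.5, 23.4, 18.6 and 22.9 CPM in CAST/EiJ and 5.13, 4.59, 5.31 and 4.75 CPM in C57BL/6J, a log2 fold change of 2.92 (adjusted p = 9.88e-06) that was 2.13 without CAST/EiJ library 1. Mx1 had 17.3, 3.35, 2.08 and 2.70 CPM against 1.35, 1.35, 1.47 and 1.03 CPM (2.29, adjusted p = 0.0119). Mx1 rested on CAST/EiJ library 1, without which its log2 fold change was 1.06 and its adjusted p 0.149. Many laboratory strains, C57BL/6J among them, are known to carry defective Mx1 and Mx2 alleles. Bst2, whose product tethers budding virus, did not pass (93.9 ± 8.06 against 81.5 ± 8.67 CPM, adjusted p = 0.25).

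Promoters of 5 of these genes are shown because interferon acts through a short element, the interferon-stimulated response element, and the letters can be compared between genes that were lower and one that was not. Each is the 250 bases before the gene's start in the RefSeq annotation of GRCm38.p6, which is C57BL/6J sequence, written 5′ to 3′ on the gene's strand, and capitals mark matches to GAAANNGAAA on either strand. Stat2 lies at chr10:128270248-128270497 (+), Ifit3 at chr19:34583279-34583528 (+), Rsad2 at chr12:26456453-26456702 (-), Oas1a at chr5:120907526-120907775 (-) and Bst2 at chr8:71537473-71537722 (-).
Stat2: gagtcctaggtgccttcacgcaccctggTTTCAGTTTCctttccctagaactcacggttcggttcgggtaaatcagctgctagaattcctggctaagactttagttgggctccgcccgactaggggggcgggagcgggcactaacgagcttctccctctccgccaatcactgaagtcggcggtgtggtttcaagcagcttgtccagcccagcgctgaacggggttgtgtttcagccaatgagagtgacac
Ifit3: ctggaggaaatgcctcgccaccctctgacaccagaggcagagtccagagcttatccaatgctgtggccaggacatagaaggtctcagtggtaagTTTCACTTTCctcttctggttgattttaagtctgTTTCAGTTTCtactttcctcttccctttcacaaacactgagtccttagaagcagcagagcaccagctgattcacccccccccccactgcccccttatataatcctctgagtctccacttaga
Rsad2: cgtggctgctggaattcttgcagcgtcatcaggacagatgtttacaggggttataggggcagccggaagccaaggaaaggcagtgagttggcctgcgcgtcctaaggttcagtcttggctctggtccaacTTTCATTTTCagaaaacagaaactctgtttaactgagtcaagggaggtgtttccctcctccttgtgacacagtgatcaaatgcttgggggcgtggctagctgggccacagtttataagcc
Oas1a: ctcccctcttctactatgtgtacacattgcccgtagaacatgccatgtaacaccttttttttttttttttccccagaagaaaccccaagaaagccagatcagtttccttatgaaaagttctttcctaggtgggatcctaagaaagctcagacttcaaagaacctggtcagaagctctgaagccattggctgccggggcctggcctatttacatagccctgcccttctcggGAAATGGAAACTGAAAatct
Bst2: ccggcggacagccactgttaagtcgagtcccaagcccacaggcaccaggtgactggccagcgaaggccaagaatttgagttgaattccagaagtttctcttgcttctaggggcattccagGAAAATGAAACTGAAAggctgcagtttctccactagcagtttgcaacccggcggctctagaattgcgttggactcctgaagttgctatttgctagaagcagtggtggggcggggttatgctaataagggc
Ifit3 held 2 separate matches, Oas1a and Bst2 held 2 overlapping matches each, and Stat2 and Rsad2 held 1. Windows of 300 bases, from 250 before to 50 after the start, were then searched, and a gene counted if any of its promoters held the letters. Of the 23 interferon-stimulated genes with a promoter in the RefSeq table, 13 (56.5%) held them, against 503 of 13114 tested genes with a promoter (3.84%). Of the 13 members with the letters 7 were lower (median log2 fold change -1.0), and of the 10 without them 9 (median -1.67). None was higher in either set. Mx1 and Mx2, the genes that were higher, were not among the 23, so a separation by direction could not be seen. No CAST/EiJ sequence was used.

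The immunity-related and guanylate-binding GTPases were also lower, 11 of 19 with 1 higher and a median of -0.86 (Gbp6 is listed under 2 identifiers). Iigp1 (Irga6), a GTPase that coats parasite vacuoles, had 17.9, 21.9, 19.1 and 25.2 CPM in C57BL/6J and a count of 0 in every CAST/EiJ library, at least 1042-fold lower against a floor of 3 counts over the 4 libraries. Tgtp2 (Irgb6; chr11:49057194-49064206) had 21.5, 21.3, 24.1 and 23.6 CPM in C57BL/6J and 2 counts in all in CAST/EiJ, a ratio of 1687 with a counting interval of 467 to 13937. Its near-identical copy Tgtp1 averaged 6.92 CPM in CAST/EiJ and 8.12 in C57BL/6J, and the 2 genes together 6.93 against 30.7 CPM. How far the matching of CAST/EiJ reads to the C57BL/6J genome entered the values of Iigp1 and Tgtp2 was not tested. The regulators of the family changed less: Irgm1 had 29.0, 26.7, 20.4 and 24.9 CPM against 47.0, 44.9, 45 and 48.3 CPM (-0.87, adjusted p = 1.95e-05), Irgm2 changed by -1.02 and Igtp (Irgm3) by -1.12. Gbp2b was the exception, with 3.02, 1.86, 2.47 and 2.30 CPM in CAST/EiJ and 0.258, 0.225, 0.332 and 0.201 CPM in C57BL/6J (3.23, adjusted p = 2.61e-07). Of 11 members with a promoter in the RefSeq table, 10 (90.9%) held the GAAANNGAAA letters. In the Ifi200 family of interferon-inducible nuclear proteins, which includes DNA sensors, 3 of 7 tested genes were lower and none higher (median -0.70): Ifi203 (-0.79), Ifi204 (-1.10) and Mnda (-1.47, and -2.07 without CAST/EiJ library 1).

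**Figure D2:**
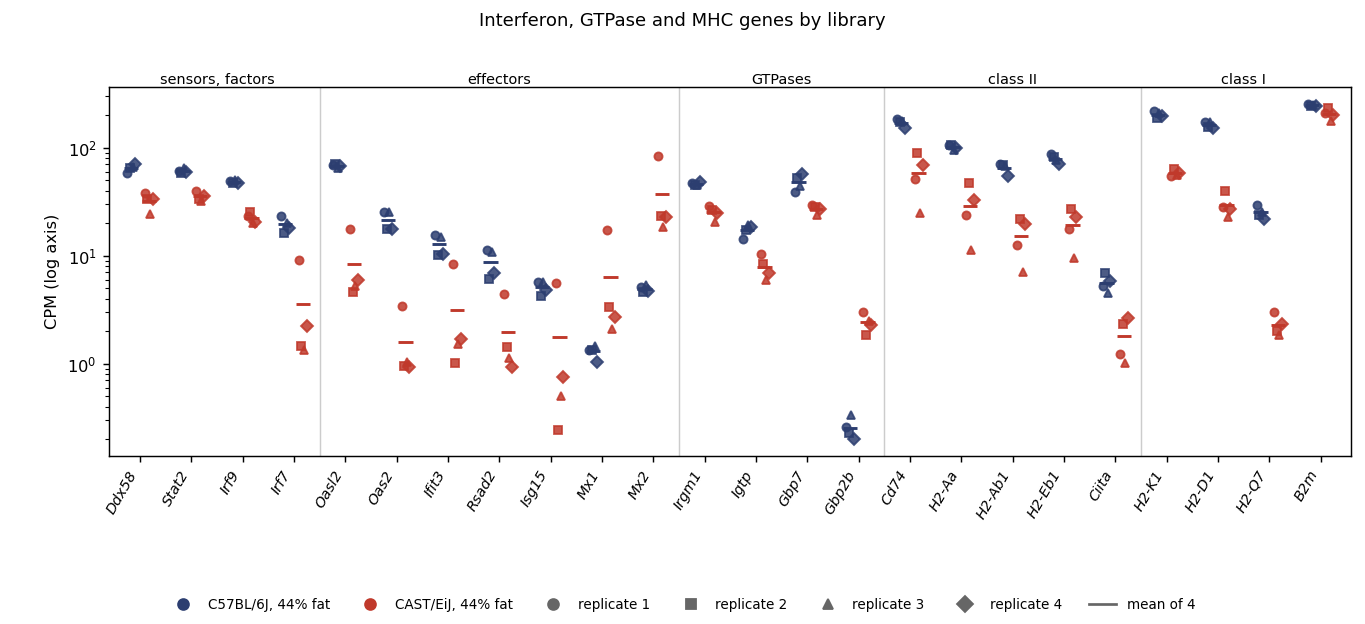
CPM on a log axis of immune genes in each of the 4 CAST/EiJ and 4 C57BL/6J libraries on 44% fat (points, with a bar at the mean of 4 and 1 symbol for each replicate). The strains do not overlap in any gene drawn except Isg15, and CAST/EiJ library 1 lies above its 3 fellows in effector genes such as Oasl2 (17.7 against 4.57 to 5.97 CPM).

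MHC class II genes, which present peptides to helper T cells, were lower in CAST/EiJ in 9 of 12 with a median of -1.73. The classical chains moved together, and how far the matching of CAST/EiJ reads to the C57BL/6J genome entered their values was not tested. H2-Ab1 had 12.5, 21.9, 7.12 and 19.6 CPM in CAST/EiJ and 70.1, 68.8, 68.2 and 55.2 CPM in C57BL/6J (log2 fold change -2.10, adjusted p = 7.77e-05). H2-Eb1 had 17.7, 27, 9.56 and 22.8 CPM against 86.8, 81.4, 77.6 and 71.2 CPM (-2.04), and H2-Aa fell by 1.82 on the log2 scale. Within CAST/EiJ, library 3 was the lowest and library 2 the highest for these chains, while the C57BL/6J libraries were close. Cd74, the invariant chain that escorts class II molecules, had 51.7, 89.7, 24.7 and 69.8 CPM against 183, 172, 178 and 152 CPM (-1.54, adjusted p = 0.00118). Ciita, the master transcription factor of the class II genes, averaged 1.81 ± 0.822 against 5.63 ± 1.04 CPM (-1.64). H2-Ob, a chain of the peptide-exchange inhibitor H2-O, was at -2.98 and at -2.31 without C57BL/6J library 1. The 1 gene higher in CAST/EiJ was H2-Ea-ps, the E alpha locus that carries a promoter deletion in C57BL/6J. It had 7.20, 13.5, 3.25 and 9.17 CPM in CAST/EiJ and 0 counts in every C57BL/6J library, at least 430-fold higher.

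MHC class I and peptide-loading genes were lower in 12 of 22 and higher in 1 (median -0.61). H2-D1 (chr17:35262730-35267499), a classical chain shown to killer T cells, had 28.4, 39.5, 22.6 and 27.2 CPM in CAST/EiJ and 174, 156, 174 and 153 CPM in C57BL/6J (-2.48, adjusted p = 1.69e-07). H2-K1 had 55.0, 63.7, 55.4 and 58.8 CPM against 218, 190, 209 and 196 CPM (-1.80, adjusted p = 2.18e-06). The non-classical H2-Q10 was 64.4-fold lower, H2-Q7 10.9-fold and H2-T22 3.60-fold, and H2-T10 was 2.03-fold higher. These genes are highly polymorphic and near-identical to one another, so their counts can depend on how the authors' counting assigned reads to the copies of one strain's genome, and the values are uncertain. Nlrc5, Psmb8 and Tap1 of the same pathway were lower as well. Nlrc5, the class I transactivator, had 5.64, 4.12, 2.5 and 4.10 CPM against 14.4, 14, 15.2 and 12.1 CPM (-1.77, adjusted p = 2.65e-05). Psmb8, a subunit of the immunoproteasome, changed by -1.07 and the peptide transporter gene Tap1 by -0.63. B2m, the shared light chain, did not pass (207 ± 24.3 against 248 ± 4.84 CPM, adjusted p = 0.228).

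T and NK cell markers were lower in CAST/EiJ in 10 of 14 and higher in none, with a median of -1.85. Their summed level was 10.0 to 13.7 CPM in CAST/EiJ and 24.9 to 31.8 CPM in C57BL/6J, and without Thy1, the most abundant of them, 3.42 to 7.53 and 8.32 to 13.7 CPM. Cd3g, a chain of the T cell receptor complex, had 0.122, 0.122, 0.0561 and 0.225 CPM in CAST/EiJ and 0.923, 1.27, 1.44 and 1.01 CPM in C57BL/6J (-3.10, adjusted p = 9.13e-06). Thy1, a surface protein of T cells that stromal cells also make, had 9.59, 5.82, 6.59 and 6.49 CPM against 19.1, 14.6, 16.2 and 16.6 CPM (-1.22). The NK receptor gene Ncr1 was at -3.46 (-5.62 without CAST/EiJ library 1) and the granzyme gene Gzma at -3.65 (-3.01 without C57BL/6J library 1, -4.40 without CAST/EiJ library 1). Most of these genes had under 2 CPM in both strains. Cd4, the co-receptor of helper T cells, did not pass (2.55 ± 1.79 against 2.44 ± 0.529 CPM). Without C57BL/6J library 1 and CAST/EiJ libraries 1 and 2, 5 of the 14 passed, with a median of -1.68, and without the 3 libraries of the highest adipocyte sums also 5, with a median of -1.48. Of 8 B and plasma cell markers 2 were lower, among them the B cell receptor chain Cd79b (-2.41), and 1 without C57BL/6J library 1 or CAST/EiJ library 2 or 3.

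Macrophage markers did not follow the lymphocytes. Of 16, with Itgam listed under 2 identifiers, 3 were higher and 1 lower, with a median of 0.29, and their summed level was 900 to 2450 CPM in CAST/EiJ and 472 to 819 CPM in C57BL/6J. Without Lyz2 and Gpnmb the sums overlapped, at 337 to 615 and 323 to 419 CPM. Lyz2, lysozyme of macrophages, had 361, 1324, 455 and 659 CPM in CAST/EiJ and 133, 246, 288 and 281 CPM in C57BL/6J (1.56, SE 0.338, adjusted p = 0.00151). Library 2 was the highest in CAST/EiJ and library 1 the lowest in C57BL/6J, without overlap. Gpnmb, a glycoprotein of lipid-laden macrophages, averaged 269 ± 167 against 75.3 ± 45.8 CPM (1.84, adjusted p = 0.0115), and did not pass without CAST/EiJ library 2 (adjusted p = 0.0622). Adgre1, which encodes the F4/80 antigen, had 14.5, 14.8, 11.5 and 9.82 CPM against 18.6, 23.6, 25.5 and 28.3 CPM (-0.92, adjusted p = 0.00716). Without CAST/EiJ library 1, 2 macrophage markers were lower, and without C57BL/6J library 1 and CAST/EiJ libraries 1 and 2, 1 was higher and 1 lower (median -0.22).

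Among 26 complement genes 3 were higher and 4 lower (median 0.13). C2, the serine protease of the classical pathway, had 15.9, 24.6, 18.4 and 11.9 CPM in CAST/EiJ and 62.4, 113, 83.8 and 138 CPM in C57BL/6J (-2.49, adjusted p = 2.88e-06). C1s1, another protease of that pathway, had 117, 99.8, 125 and 95 CPM against 180, 228, 216 and 254 CPM (-1.01). C4a, a near-identical copy of C4b, averaged 4.82 ± 0.256 against 1.22 ± 0.18 CPM (1.98), and no sum with C4b was made. C7 changed by -1.71. Of 35 chemokines and their receptors 6 were higher and 9 lower (3 and 8 without CAST/EiJ library 2). Ccl5, a chemokine made by T and NK cells, was 13.5-fold lower (0.122, 0.122, 0 and 0.0999 against 1.5, 1.16, 1.55 and 0.628 CPM), and Cxcr3, a chemokine receptor of T cells, 4.04-fold. Ackr1, the chemokine-binding receptor of venules and red cells, had 11, 15.9, 2.24 and 9.59 CPM in CAST/EiJ and 0.494, 0.31, 0.443 and 1.48 CPM in C57BL/6J (3.81, and 4.52 without C57BL/6J library 4). Ackr3, a scavenger of CXCL12, was at 0.83. Cxcl12 itself was at -1.27 (adjusted p = 0.0232) through C57BL/6J libraries 1 and 3, with 522 and 247 CPM against 87.6 to 112 CPM in the other 6, and at 0.07 (adjusted p = 0.911) without these 2 and CAST/EiJ library 1. Without C57BL/6J library 1 it was at -0.55 (adjusted p = 0.229), and it also missed the threshold without CAST/EiJ library 1, 3 or 4 (adjusted p = 0.05, 0.053 and 0.0543).

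Granulosa cell markers differed little as a group: 1 of 18 was higher and 2 lower, the median was -0.07, and the summed level was 5610 to 7600 CPM in CAST/EiJ and 6640 to 7590 CPM in C57BL/6J. The 3 that differed belong to signals between the follicle's cells. Amh, anti-Müllerian hormone of growing follicles, had 29.3, 27.8, 54.9 and 41.9 CPM in CAST/EiJ and 124, 131, 133 and 165 CPM in C57BL/6J (-1.84, SE 0.286, adjusted p = 5.79e-05). The gene of its receptor, Amhr2, moved the other way, with 132, 137, 115 and 134 CPM against 66.5, 71.8, 81.5 and 91.3 CPM (0.73, adjusted p = 0.00435). Kitl, the granulosa ligand of the oocyte's KIT receptor, had 39.7, 43.2, 33.7 and 40.9 CPM against 124, 145, 119 and 159 CPM (-1.79, SE 0.202, adjusted p = 1.07e-06). The strains did not overlap in any of the 3. The other 15 granulosa genes did not pass, though the highest of them was at 2.42 on the log2 scale. Inha, the inhibin alpha subunit, averaged 1381 ± 108 against 1303 ± 144 CPM. Fshr, the receptor of follicle-stimulating hormone, averaged 26.6 ± 9.78 against 28.6 ± 4.82 CPM. Cyp19a1, aromatase, averaged 67.0 ± 37.5 against 90.1 ± 32.3 CPM, with a wide spread in both strains.

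Theca and interstitial markers were higher in CAST/EiJ in 5 of 13 and lower in none (median 0.30), and 4 of 13 hedgehog pathway genes were higher and none lower (median 0.14). Hedgehog ligands from granulosa cells act on theca cells, whose response includes Gli1 and the receptor gene Ptch1, both of which stand in both lists. Insl3, a peptide hormone of theca cells, had 16.4, 15.2, 12.1 and 21.7 CPM in CAST/EiJ and 2.00, 1.38, 2.21 and 1.91 CPM in C57BL/6J (3.12, SE 0.424, adjusted p = 1.14e-05). Gli1 had 66.6, 51.8, 66.7 and 59.1 CPM against 33.9, 26.4, 32.1 and 33.1 CPM (0.96, adjusted p = 0.00371). Ptch1 changed by 0.39 without overlap. Cdon, a hedgehog co-receptor, had 204, 189, 114 and 209 CPM against 66.7, 73.3, 55.6 and 72.5 CPM (1.42, adjusted p = 5.73e-06). Nr2f2, a stromal and theca transcription factor, was at 0.30 and missed the threshold without C57BL/6J library 1 (adjusted p = 0.0505). The ligand gene Ihh did not pass (69.4 ± 16.3 against 37.9 ± 7.52 CPM, adjusted p = 0.111), nor did Smo (167 ± 6.06 against 159 ± 5.16 CPM) or Cyp17a1, the androgen-forming enzyme (363 ± 222 against 434 ± 163 CPM), for which CAST/EiJ library 3 had 55.5 CPM and its 3 fellows 353 to 559. Within series 82 alone, 1 theca marker and 1 hedgehog gene passed.

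Luteal markers differed in 3 of 12, 1 higher and 2 lower (median -0.14). Sfrp4, a secreted Wnt antagonist of the corpus luteum, had 303, 24, 208 and 24.6 CPM in CAST/EiJ and 1389, 996, 1366 and 694 CPM in C57BL/6J (-2.99, adjusted p = 0.0153, and -3.70 without CAST/EiJ library 1). CAST/EiJ libraries 1 and 3 were high within their strain, as were C57BL/6J libraries 1 and 3. Ptgfr, the receptor of the prostaglandin that ends luteal life, followed the same order of libraries (206, 43.7, 138 and 55.6 against 555, 380, 516 and 319 CPM) and passed narrowly (-2.0, adjusted p = 0.0488). It missed the threshold in 7 of the 8 fits that left out 1 library, all but the one without CAST/EiJ library 1 (adjusted p from 0.0556 to 0.128). Mt3, a metallothionein, was higher (27.2 ± 12.1 against 4.71 ± 1.84 CPM, 2.53). The count of lower luteal markers was 1 without C57BL/6J library 1, 2 or 3 or CAST/EiJ library 2, 3 or 4, and C57BL/6J libraries 1 and 3 were both above libraries 2 and 4 in 10 of the 12 genes.

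In steroid hormone synthesis Star, Cyp11a1, Hsd3b1, Cyp17a1 and Cyp19a1 did not pass, which does not show that the strains were equal. Of 19 genes 3 were higher and 1 lower (1 and 1 without C57BL/6J library 4), with a median of 0.08. Star, which moves cholesterol into mitochondria, had 761, 268, 1107 and 540 CPM in CAST/EiJ and 659, 363, 863 and 288 CPM in C57BL/6J, and Cyp11a1, which cleaves its side chain, averaged 3854 ± 739 against 5163 ± 1028 CPM. Hsd3b1, which completes progesterone, averaged 5756 ± 582 against 4791 ± 695 CPM, and none of these 3 passed (adjusted p = 0.788, 0.251 and 0.373). Hsd3b6, a related isozyme, had 4.09, 4.12, 12.1 and 3.07 CPM against 0.472, 0.733, 0.802 and 1.48 CPM (2.74, adjusted p = 0.000246, and 2.11 without CAST/EiJ library 3). Near-identical copies of Hsd3b6 were not searched for. Por, the electron donor of these P450 enzymes, was at 0.46 and missed the threshold without C57BL/6J library 4 or CAST/EiJ library 1 (adjusted p = 0.0517 and 0.0607). Fdx1, the mitochondrial electron carrier, was at 0.54 (adjusted p = 0.0473) and missed it without C57BL/6J library 2, 3 or 4 or CAST/EiJ library 2 or 3 (adjusted p from 0.0538 to 0.144). Hsd17b7, an enzyme of both estradiol and cholesterol synthesis, had 46.5, 47.3, 130 and 50.8 CPM in CAST/EiJ and 1213, 98.3, 1271 and 107 CPM in C57BL/6J (-3.29, SE 0.91, adjusted p = 0.0097). The difference rested on C57BL/6J libraries 1 and 3, and the groups overlapped. Without these and CAST/EiJ library 1 it was at -0.44 (adjusted p = 0.794).

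Cholesterol synthesis and uptake genes were lower in 5 of 25 and higher in 1, with a median of -0.38. Pmvk, a kinase of the mevalonate pathway, had 5.89, 6.13, 6.2 and 6.32 CPM in CAST/EiJ and 15.8, 9.13, 16.5 and 9.83 CPM in C57BL/6J (-1.06, adjusted p = 4.82e-05). Lss, the enzyme that forms lanosterol, had 40, 39, 44.0 and 45 CPM against 94.3, 46.2, 119 and 40.1 CPM, so that its call (-0.83, adjusted p = 0.0233) rested on C57BL/6J libraries 1 and 3. It was lost without C57BL/6J library 1 or 3 or CAST/EiJ library 1 or 2 (adjusted p from 0.0525 to 0.136). Those 2 C57BL/6J libraries were both above libraries 2 and 4 in 23 of the 25 genes. The number of lower genes was 3 without C57BL/6J library 3 or CAST/EiJ library 1 and 8 without C57BL/6J library 4; without CAST/EiJ library 2 it was 4, and none was higher. Without C57BL/6J libraries 1 and 3 and CAST/EiJ library 1, 1 was lower and 1 higher, with a median of 0.15. Sc5d, of the late pathway, was higher in CAST/EiJ (200, 479, 159 and 249 against 120, 129, 149 and 155 CPM; 0.97, adjusted p = 0.0122), though not without CAST/EiJ library 2 (adjusted p = 0.0869).

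Of 12 hormone receptor genes 4 were higher and 1 lower (median 0.06; 2 lower without C57BL/6J library 2 or CAST/EiJ library 1). Pgr, the progesterone receptor induced at ovulation, had 6.71, 17.5, 8.78 and 9.44 CPM in CAST/EiJ and 3.13, 2.40, 2.19 and 6.23 CPM in C57BL/6J (1.6, adjusted p = 0.00422). Esr1, the estrogen receptor of theca and stroma, averaged 122 ± 27.2 against 67.3 ± 16.1 CPM (0.86). Insr, the insulin receptor, had 146, 148, 143 and 148 CPM against 186, 192, 176 and 193 CPM (-0.35, adjusted p = 0.00173). The gonadotropin receptors did not pass: Lhcgr, the receptor of luteinizing hormone, averaged 538 ± 425 against 494 ± 110 CPM. Among 27 TGF-beta family genes of the follicle 3 were higher and 2 lower, with the ligand genes Bmp7 (1.13) and Tgfb2 (0.77) in the first group and Bmp4 (-0.73) and Amh in the second. Pgr was the 1 of 14 ovulatory genes that passed, and 1 further gene was lower without C57BL/6J library 4.

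**Figure D3:**
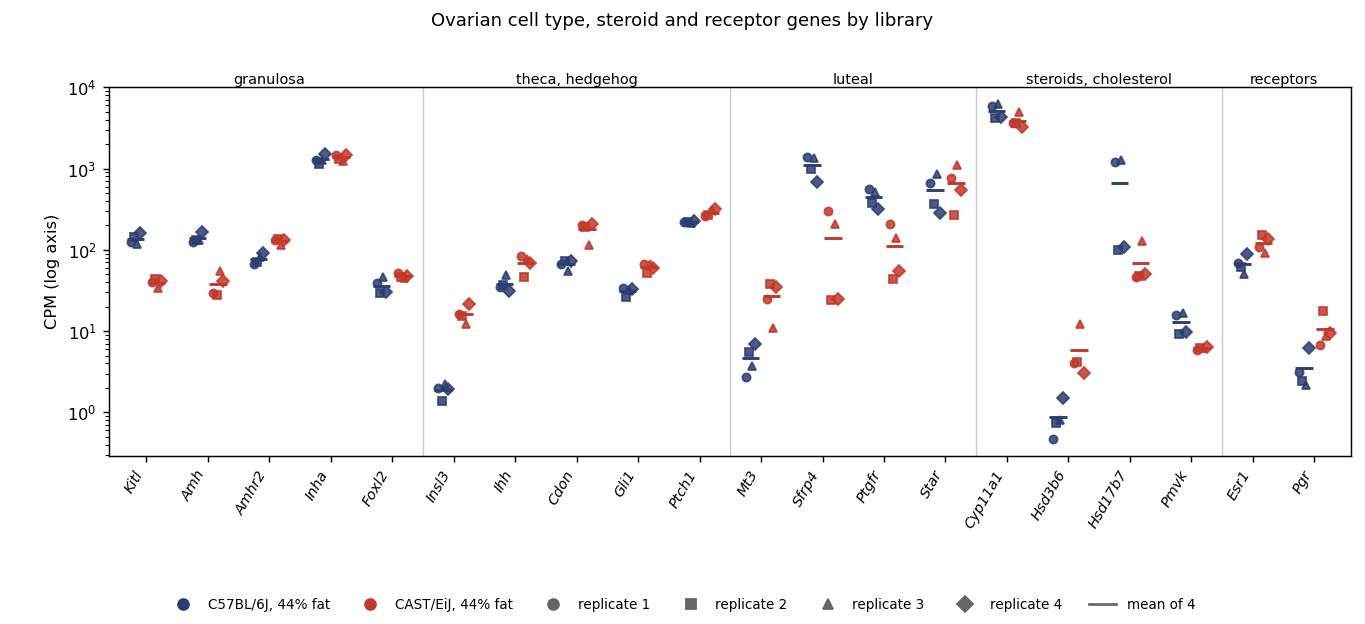
CPM on a log axis of ovarian genes in the 4 CAST/EiJ and 4 C57BL/6J libraries on 44% fat (points, with a bar at the mean of 4 and 1 symbol for each replicate). Amh and Kitl are lower and Insl3 and Cdon higher in CAST/EiJ without overlap, while Hsd17b7 spans 98.3 to 1271 CPM within C57BL/6J.

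Oocyte genes, whose RNA comes from the follicles' germ cells, differed in 1 of 22 (median 0.23; 3 higher without CAST/EiJ library 1 and 2 without CAST/EiJ library 3). Dazl, a germ cell RNA-binding protein, had 13.6, 23.7, 9.56 and 18.2 CPM in CAST/EiJ and 4.49, 6.45, 3.65 and 6.06 CPM in C57BL/6J (1.66, adjusted p = 0.00284), while Zp3 of the zona pellucida averaged 38.6 ± 7.7 against 33.6 ± 3.3 CPM and did not pass. Of 24 proliferation genes only the mitotic motor gene Kif11 passed (-0.54, adjusted p = 0.0389), and it did so in 1 of the 8 fits that left out 1 library, the one without CAST/EiJ library 4 (adjusted p from 0.0549 to 0.125 in the other 7). Mki67 averaged 182 ± 36.8 against 196 ± 15 CPM.

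Glutathione and xenobiotic enzymes were higher in CAST/EiJ in 10 of 27 and lower in 2 (median 0.49; 10 and 1 without CAST/EiJ library 1). Gstp2, a pi-class glutathione transferase, had 21.7, 16.9, 19.1 and 18.1 CPM in CAST/EiJ and 2.42, 3.32, 3.13 and 2.64 CPM in C57BL/6J (2.72, SE 0.166, adjusted p = 9.00e-11). Near-identical copies of Gstp2 were not searched for. Of the mu class 3 genes were higher. Gstm1 had 907, 1705, 1132 and 1099 CPM against 370, 468, 363 and 645 CPM (1.39, adjusted p = 0.0012), Gstm2 averaged 1134 ± 372 against 321 ± 118 CPM (1.82) and Gstm7 112 ± 21 against 22.8 ± 6.07 CPM (2.30). Gstm5 was lower (-0.38, adjusted p = 0.0187), though not without CAST/EiJ library 1 (adjusted p = 0.064), and Gstm6 did not pass (0.76, adjusted p = 0.264). Nqo1, a quinone reductase, was at 1.78. Nnt, the mitochondrial transhydrogenase that lacks exons in C57BL/6J, had 131, 136, 110 and 141 CPM against 59.7, 67.9, 66.1 and 68.1 CPM (0.99, adjusted p = 6.62e-06). Gpx3, the secreted glutathione peroxidase, went the other way, with 224, 184, 254 and 133 CPM in CAST/EiJ and 980, 784, 723 and 880 CPM in C57BL/6J (-2.08, SE 0.278, adjusted p = 1.02e-05).

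Mitochondrial respiration genes were higher in 8 of 37 and lower in 1 (24.3% in all, against 29.5% of all tested genes, median 0.10). The gene mt-Nd2, for a complex I subunit of the mitochondrial genome, averaged 3753 ± 125 against 2118 ± 93.9 CPM (0.83) and mt-Atp6 2455 ± 208 against 1357 ± 180 CPM (0.86). Near-identical copies of mt-Nd2 and mt-Atp6 were not searched for. The 1 lower gene was mt-Co2, described below with its copies. Fatty acid oxidation genes were higher in 5 of 24 and lower in 1, with a median of 0.04. Hadhb, of the mitochondrial trifunctional protein, had 330, 328, 297 and 302 CPM against 214, 210, 205 and 268 CPM (0.49, adjusted p = 0.001), and Etfdh, which passes electrons to ubiquinone, was at -0.49. The counts were 3 and 2 without C57BL/6J library 2 and 3 and 1 without CAST/EiJ library 1. Of 15 fatty acid synthesis genes Acaca, the first enzyme, was higher (0.73, adjusted p = 0.0107), with 2 higher without C57BL/6J library 3. None of 22 unfolded protein response genes passed (edgeR), their values lay between -0.18 and 0.26, and 1 passed without CAST/EiJ library 4.

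Matrix genes differed in both directions, 5 higher and 6 lower of 29. Tnc, tenascin C, had 140, 36.3, 89.4 and 41.7 CPM in CAST/EiJ and 346, 905, 440 and 629 CPM in C57BL/6J (-2.92, SE 0.587, adjusted p = 0.00081). Lum, the collagen-binding proteoglycan lumican, had 350, 431, 373 and 344 CPM against 101, 124, 88.9 and 180 CPM (1.6, adjusted p = 4.01e-06). Mgp, an inhibitor of calcification, was at -1.46 and the fibril-associated collagen gene Col12a1 at 1.18. Of 25 proteases and inhibitors 3 were higher and 4 lower. The gelatinase gene Mmp2 had 557, 332, 611 and 329 CPM against 135, 186, 153 and 198 CPM (1.44, adjusted p = 7.42e-05), and Adamts5, an aggrecan-cleaving protease, averaged 9.95 ± 3.65 against 49.0 ± 26.4 CPM (-2.30).

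Among 30 Wnt genes 2 were higher and 3 lower (5 lower without CAST/EiJ library 1): the ligand gene Wnt5a was at 0.63 and the receptor gene Fzd2 at 0.68, Wnt2b at -0.83, and Sfrp4 as given above. Among 18 IGF pathway genes 1 was higher and 3 lower (2 and 3 without C57BL/6J library 3 or 4 or CAST/EiJ library 4). Igfbp2, a binding protein of insulin-like growth factors, had 112, 178, 123 and 109 CPM in CAST/EiJ and 28.8, 23.7, 32.3 and 30.5 CPM in C57BL/6J (2.18, adjusted p = 6.03e-05), while Igfbp5 was at -0.72 and Igfbp3 at -2.0. Endothelial markers were lower in 5 of 14, by at most 0.57 on the log2 scale, and higher in 1; 2, 3 and 2 were lower without C57BL/6J library 1, C57BL/6J library 3 and CAST/EiJ library 4, the last with 2 higher. The gene that was higher, Vwf, the clotting factor of endothelium, averaged 60.1 ± 5.34 against 27.6 ± 4.68 CPM (1.12). The pericyte gene Rgs5 was the 1 of 12 mural cell markers that passed, with 46.3, 47.3, 50.1 and 32.4 CPM against 190, 119, 177 and 106 CPM (-1.75, adjusted p = 2.92e-06), and 2 others were higher without CAST/EiJ library 3.

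Of 13 surface epithelium markers 2 were higher and 2 lower, with Upk1b, a uroplakin, at -2.39 (4.18 ± 1.8 against 22 ± 3.44 CPM). Leaving out 1 library gave 0 to 3 higher and 1 or 2 lower, with 0 higher and 1 lower without CAST/EiJ library 4 and 3 higher and 1 lower without CAST/EiJ library 2. Of 11 oviduct markers 3 were lower (median -0.77), such as the ciliary gene Ccdc39 at -2.67, and C57BL/6J library 1 was the highest of its strain in 11 of 11. Without it none was lower and 1 was higher, and Ccdc39 had an adjusted p of 0.0561; without CAST/EiJ library 1 or 2, 1 was lower. Of 12 white adipocyte markers only Plin1, the lipid droplet protein that steroid-forming cells also make, passed (99.8, 99.6, 41.2 and 97.1 against 25.9, 28.6, 34.8 and 27.9 CPM; 1.53). The median of the adipocyte list was 1.70, with C57BL/6J library 1 the highest of its strain in 10 of 12 and CAST/EiJ library 1 in 10 of 12. That median was 3.66 without C57BL/6J library 1, 0.53 without CAST/EiJ library 1 and -1.47 without these 2 and CAST/EiJ library 2. Of 3 brown adipocyte markers 2 were higher: Cox7a1, of cytochrome oxidase, had 8.27, 16.6, 4.32 and 10.5 CPM against 1.72, 1.97, 2.35 and 2.41 CPM (2.23), and Dio2, a deiodinase that activates thyroid hormone, was at 0.96. Neither passed without C57BL/6J library 1 and CAST/EiJ libraries 1 and 2. Skeletal muscle and red blood cell markers gave no calls.

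Immediate early genes, the first to be transcribed after growth factors or tissue handling, were lower in 8 of 22 and higher in none (median -0.50). Fos, part of the AP-1 factor, had 5.11, 5.21, 5.36 and 11.5 CPM in CAST/EiJ and 13.0, 14.1, 16.2 and 18.6 CPM in C57BL/6J (-1.18, adjusted p = 0.0427). Klf2, a zinc finger factor, was at -0.72 and Btg2, an antiproliferative gene, at -0.77. The number lower was 1, 5 and 2 without C57BL/6J library 1, 2 or 3 and 5, 2, 4 and 4 without CAST/EiJ library 1, 2, 3 or 4, and 0 without C57BL/6J libraries 1 and 3 and CAST/EiJ library 1. Fos missed the threshold in every such fit but the one without CAST/EiJ library 4 (adjusted p from 0.0523 to 0.11), and Btg2 without C57BL/6J library 1 or 3 or CAST/EiJ library 2 (0.0501, 0.0574 and 0.0556).

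The largest folds among genes with at least 5 CPM in the higher strain and no overlap were mostly all-or-none. Gsdma3 (chr11:98626360-98638226), a pore-forming gasdermin, had 53.1, 37.6, 49.0 and 39.9 CPM in CAST/EiJ and 0 counts in C57BL/6J, at least 2381-fold higher. Tas1r1 (chr4:152027914-152038568), a taste receptor subunit, had 65.0, 123, 88.1 and 69.3 CPM against 0.966, 0.592, 0.636 and 0.503 CPM (6.98, adjusted p = 1.07e-12). Gad1, the enzyme that makes the transmitter GABA, had 14, 10.5, 11.1 and 20.8 CPM against 0.0215, 0, 0.0553 and 0.101 CPM (8.21, and 8.94 without C57BL/6J library 4), and the cystatin gene Cst9 was 243-fold higher. In the other direction Fam213b (at least 768-fold) and the apolipoprotein L gene Apol7e (at least 630-fold) had 0 counts in CAST/EiJ. Atp12a, a proton pump, had 0.0243, 0.0915, 0 and 0.05 CPM against 0.494, 18.4, 8.80 and 18.8 CPM (-8.06, and -8.66 without CAST/EiJ library 2). Rec8, the meiotic cohesin, was 83.3-fold lower (0.0825 ± 0.0626 against 7.39 ± 2.01 CPM). Further genes of this rule were Tspan10 (8.54; 9.38 without C57BL/6J library 3) and Cadps (7.28) on the higher side. On the lower side were Trim30d (-6.62; -7.47 without CAST/EiJ library 1), Plac9b (-6.11; -7.07 without CAST/EiJ library 1, and 0.347 against 9.32 CPM with its copies) and Ces2a (-8.31; -6.92 without C57BL/6J library 1 and -9.18 without CAST/EiJ library 3). Ces2a spanned 3.38 to 63.2 CPM within C57BL/6J, and its call was lost on the deposited variance-stabilised values (limma, adjusted p = 0.0918) and with voom (adjusted p = 0.633). The table lists only genes above 0 in at least 12 libraries, and 90 listed genes had 0 counts in every CAST/EiJ library on either diet and 26 in every C57BL/6J library.

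Several of the largest folds were found in genes with a near-identical copy elsewhere, and for some the sum over the copies was the same in both strains. The gene mt-Co2 (chrMT:7013-7696), for subunit II of cytochrome oxidase, had 5.98, 4.36, 8.39 and 5.40 CPM in CAST/EiJ and 1495, 1661, 1370 and 1736 CPM in C57BL/6J (-8.02, SE 0.249). Its 2 nuclear copies are in the table. Gm13341 (chr2:22587291-22587962), 95.9% identical over 684 bases, averaged 972 CPM in CAST/EiJ and 0.0487 in C57BL/6J, and Gm28661 (chr1:24614885-24615565), 100% identical, 2637 and 2118 CPM. The gene and its copies together came to 3614 against 3684 CPM. A stretch of 120 bases is shown because it holds differences that separate the copies in the reference genome: bases 445 to 564 of mt-Co2 and Gm28661 and bases 433 to 552 of Gm13341, with capitals at the 7 bases of Gm13341 that differ from mt-Co2.
mt-Co2: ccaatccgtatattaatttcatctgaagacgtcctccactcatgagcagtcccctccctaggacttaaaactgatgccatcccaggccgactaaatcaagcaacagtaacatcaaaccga
Gm13341: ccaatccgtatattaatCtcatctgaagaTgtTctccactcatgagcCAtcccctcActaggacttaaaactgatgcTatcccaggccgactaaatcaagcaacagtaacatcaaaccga
Gm28661: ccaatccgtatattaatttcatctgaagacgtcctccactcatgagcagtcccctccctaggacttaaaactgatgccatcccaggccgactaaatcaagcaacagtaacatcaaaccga
The mitochondrial sequence of CAST/EiJ was not used here, so to which copy its reads belong was not tested.

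The same held for other pairs. Rpl9-ps6, listed as a pseudogene, had 526, 495, 532 and 489 CPM in C57BL/6J and 0.195, 0.061, 0.252 and 0.15 CPM in CAST/EiJ, while the ribosomal protein gene Rpl9, 99.9% identical over 692 bases, had 538 CPM in CAST/EiJ and 32 in C57BL/6J, and all copies together came to 539 against 543 CPM. Eno1b with the glycolytic gene Eno1 and 2 further copies came to 409 against 430 CPM, Tpm3-rs7 with the tropomyosin gene Tpm3 to 262 against 273 CPM, and Amd2 with Amd1 and 3 further copies to 123 against 114 CPM. For these 5 the fold of the single gene is uncertain. Copies were searched for only 38 genes, those chosen by largest fold or highest CPM, and other genes were not checked. Where the sum still differed, it was 35.2 against 5.22 CPM for Trim43b with its copies, 8.57 against 1.34 CPM for Lefty2 with Lefty1, 9.23 against 34.4 CPM for Tmem254b, and 726 against 237 CPM for Lyz2 with Lyz1. The single-gene values of Trim43b (7.52; 8.86 without C57BL/6J library 3), Lefty2 (6.66; 7.33 without C57BL/6J library 4) and Tmem254b (-9.69; -12.07 without CAST/EiJ library 2) rest on few counts in the lower strain. Of 776 pseudogenes tested 310 (39.9%) differed, against 4696 of 16240 protein-coding genes (28.9%).

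**Figure D4:**
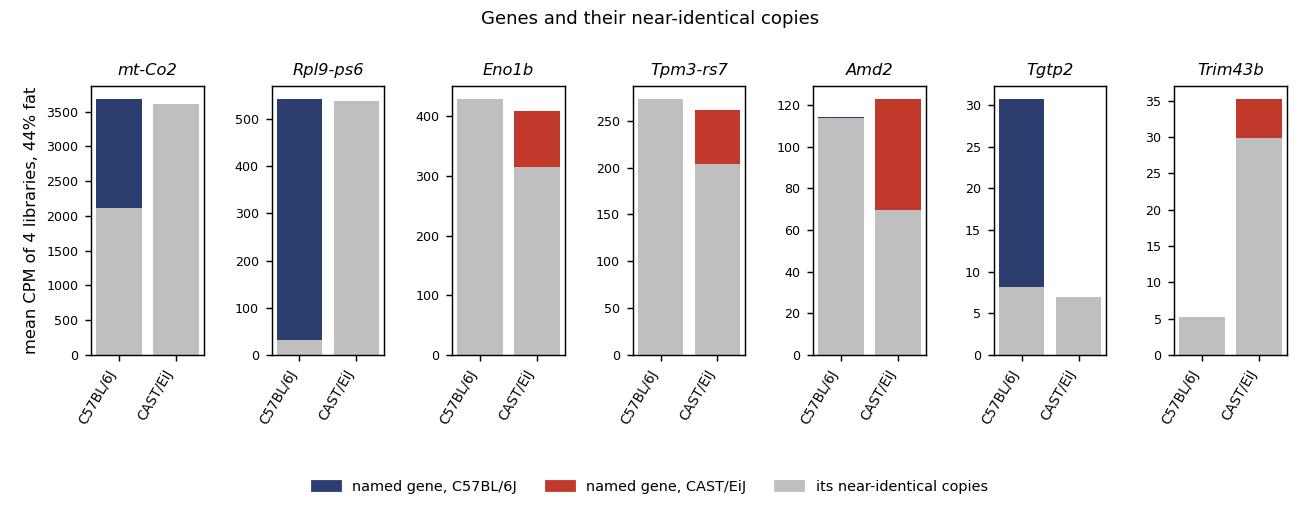
Mean CPM of 7 genes (coloured by strain) and their near-identical copies (grey), stacked, in CAST/EiJ and C57BL/6J on 44% fat. The stacks have similar heights for the first 5 genes (3614 and 3684 CPM for mt-Co2) and unequal ones for Tgtp2 and Trim43b.

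Among the most abundant genes that differed 2-fold or more, Abca1 (chr4:53030787-53159895), the exporter of cholesterol to lipoproteins, had 1742, 1442, 1940 and 1500 CPM in CAST/EiJ and 469, 569, 544 and 576 CPM in C57BL/6J (1.62, SE 0.267, adjusted p = 0.000111). Serinc5, a membrane protein that restricts retroviruses, had 509, 481, 624 and 529 CPM against 192, 215, 196 and 218 CPM (1.38, adjusted p = 5.97e-08). Fkbp4, a co-chaperone of steroid receptors, was at 1.11 and Tpm4, a tropomyosin, at 1.36. The ribosomal protein genes Rpl27a (1.01) and Rps15 (-1.11) moved in opposite directions. The 4 annotated near-identical copies of Rps15 have no deposited counts, so no sum with them could be made. Synpo, an actin-binding protein, was at -1.06. All 7 were without overlap, which the rule that chose them required.

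Of 19 genes at which mouse strains are known to carry different alleles, 9 were higher and 4 lower (median 0.29). Glo1, glyoxalase 1, had 198, 210, 192 and 196 CPM in CAST/EiJ and 88.4, 90.3, 94.7 and 96.9 CPM in C57BL/6J (1.11, SE 0.053, adjusted p = 1.68e-12). Apobec3, a cytidine deaminase that restricts retroviruses, had 70.4, 69.3, 77.0 and 64.6 CPM against 36.7, 35.3, 34.1 and 34.3 CPM (1.0, adjusted p = 7.52e-09). Wdfy1 was at 1.43, and Entpd4, a Golgi nucleotidase, at -2.03 (24.3 ± 2.77 against 99 ± 5.77 CPM). The members were picked with strain differences in mind, so the count is no independent evidence.

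Differing genes were spread over the autosomes and X, from 25.8% on X to 35.0% on 13, and 6 of 15 differed on the mitochondrial genome. Sequences with few tested genes were left out of this range. The 3 windows of 2 Mb with the most differences of 2-fold or more were on chromosomes 6, 17 and 2. In chr6:128000001-130000000, 25 of 51 tested genes (49.0%) differed so, 9 higher and 16 lower. They included Klr genes, a family with NK cell receptors, Clec genes and others such as Fkbp4. In chr17:34000001-36000000, with the MHC, 24 of 122 (19.7%) did, 7 higher and 17 lower. In chr2:176000001-178000000, with a family of closely similar predicted genes, 22 of 31 (71.0%) did, 11 higher and 11 lower. The windows were ranked by number, and the shares stand against 14.4% of all tested genes.

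On the 10% fat diet, compared between 4 CAST/EiJ and 3 C57BL/6J libraries, 7674 genes (38.0%) differed. Of the 5949 that differed on 44% fat, 4092 also differed there in the same direction, 68.8% of the calls on 44% fat and 53.3% of those on 10% fat, 32 differed in opposite directions, and 5603 (94.2%) had the same sign. No test was made of whether lists differed between the diets. The median log2 fold change was -1.11 on 44% and -1.13 on 10% fat for interferon-stimulated genes, -0.86 and -0.76 for the GTPases, -1.73 and -1.69 for MHC class II and -0.61 and -0.84 for class I, -1.85 and -1.36 for T and NK cells, -0.61 and -0.32 for chemokines and their receptors, and 0.13 and -0.47 for complement. Medians of ovarian lists lay further apart: -0.14 on 44% and -1.03 on 10% fat for luteal cells and 0.3 and 1.09 for theca and interstitial cells. They were -0.2 and 1.61 for ovulatory genes, 0.23 and 0.79 for oocytes and -0.07 and 0.22 for granulosa cells. Oviduct and adipocyte markers differed more on 10% fat, with 8 of 11 and 9 of 12 higher in CAST/EiJ (medians 2.88 and 5.69) against none and 1 higher on 44% fat, and their part in the comparison on 10% fat was not tested.

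A test of the difference between the diets' strain effects passed for 124 genes (0.614%), 114 (0.565%) in the positive direction, that is, CAST/EiJ relative to C57BL/6J higher on 44% than on 10% fat, and 10 (0.0495%) in the negative; 3223 had an unadjusted p under 0.05. Of the 124, 70 differed between the strains on 10% fat only, 14 on 44% fat only and 40 on both, and 94 lay closer together on 44% fat. Lipa, the lysosomal lipase that frees cholesterol from lipoproteins, had 150, 169, 147 and 128 CPM in CAST/EiJ and 68.5, 93.4, 88.8 and 105 CPM in C57BL/6J on 44% fat (0.74), but 95.5, 69.3, 98.9 and 91.9 against 166, 103 and 143 CPM on 10% fat (-0.63), a difference of 1.37 (adjusted p = 0.0118). Acadm, which starts the oxidation of medium-chain fatty acids, was at 0.21 on 44% fat (157 ± 8.01 against 136 ± 4.18 CPM) and at -0.40 on 10% fat, a difference of 0.61 (adjusted p = 0.0118), though its call on 44% fat was lost without C57BL/6J library 2 or CAST/EiJ library 1 (adjusted p = 0.054 and 0.0559). Dnajc15, a mitochondrial co-chaperone, was lower only on 10% fat (-1.42, with 33.1, 33.3, 34.8 and 29.6 against 84.8, 75.6 and 103 CPM) and at 0.13 on 44% fat.

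Macrophage genes were among these 124. Lyz2 was at 1.56 on 44% and -0.78 on 10% fat (difference 2.35, adjusted p = 0.0371), Adgre1 at -0.92 and -2.52 (1.6, adjusted p = 0.0472), and the complement genes C1qa, C1qb and C1qc, which macrophages make, at 0.20, 0.03 and 0.16 on 44% fat and -1.07, -1.27 and -1.15 on 10% fat. The macrophage list as a whole had a median of 0.29 on 44% fat and -0.91 on 10% fat, where 1 was higher and 11 lower. Igfbp2 was at 2.18 and 0.08 (2.10, adjusted p = 0.0497). In the negative direction Il15ra, the IL-15 receptor chain, had 2.58, 2.53, 2.27 and 2.55 CPM against 12.6, 11.4, 12.3 and 10.4 CPM on 44% fat (-2.23), and was at -0.88 on 10% fat (-1.35, adjusted p = 0.0421). Hhip, the hedgehog-binding inhibitor, was at 0.05 and 1.92 (-1.87, adjusted p = 0.0361), and Ptch1 at 0.39 and 1.09 (-0.70, adjusted p = 0.0472). Unc93b1, Fermt3, Hook1, Marveld2 and Rab11fip4 were also among the 5 of each direction with the smallest p (differences 1.21, 1.65, -0.96, -0.97 and -1.67).

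These calls rested on few libraries. Of the genes named here, Acadm, Dnajc15, Fermt3, Lipa and Unc93b1 passed the test of the difference without any 1 library. The others lost it in 6 to 13 of the 15 fits that left out 1 library, with adjusted p up to 0.0995 for Lyz2, 0.102 for Adgre1, 0.15, 0.116 and 0.105 for C1qa, C1qb and C1qc, 0.157 for Igfbp2, 0.108 for Il15ra, 0.117 for Hhip, 0.172 for Ptch1, 0.117 for Hook1, 0.156 for Marveld2 and 0.149 for Rab11fip4, and Adgre1 was at 1.01 without C57BL/6J library 2 on 10% fat. The number of genes passing this test moved with single libraries: it was 8 without C57BL/6J library 1 on 10% fat, 877 without library 2 and 62 without library 3 of that group, 31 and 221 without CAST/EiJ library 1 or 3 on 10% fat, 18, 19 and 30 without C57BL/6J library 1, 2 or 3 on 44% fat, and 69 and 57 without CAST/EiJ library 1 or 2 on 44% fat.

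**Figure D5:**
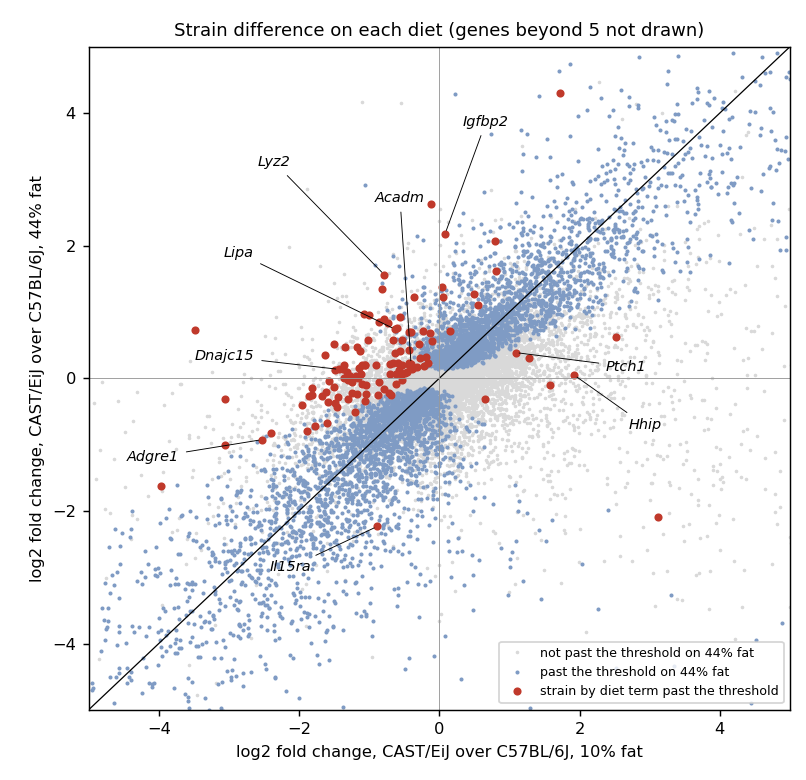
Log2 fold change of CAST/EiJ against C57BL/6J on 44% fat (vertical) and on 10% fat (horizontal) for tested genes within 5 on both axes, with the genes that passed on 44% fat in blue and those that passed the test of the difference in red. Of the blue and red genes past the threshold on 44% fat 94.2% kept their sign on 10% fat, and of the 124 genes past the test of the difference 114 are above the diagonal.

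NZO/HlLtJ, an obesity-prone inbred strain, had 4 libraries on the same diet. Its levels lay nearer to C57BL/6J in several immune genes: 58.8 ± 0.757 CPM for Stat2, 53.4 ± 3.59 for Oasl2, 27.5 ± 11.1 for Iigp1 and 71.8 ± 17.1 for H2-Eb1 (SD, n = 4). Kitl was at 169 ± 43.2 CPM and Amh at 107 ± 27.9 CPM in that strain, and Insl3 at 3.54 ± 0.879 CPM. Gpx3 was at 129 ± 37.6 CPM and H2-K1 at 79.1 ± 19.6 CPM, nearer to CAST/EiJ. No test was made with that strain.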

How the data were processed

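The authors deposited estimated counts per gene and log2-scale variance-stabilised values for 24716 genes in 23 libraries. Per the submitters' processing notes the build was GRCm38 and DESeq2 was used; the aligner and counter are not given in the sources used here. Of the deposited expected count values 27.4% were not whole, and counts were rounded before testing. The deposited gene table gave positions, which were taken in 1-based form. Counts were filtered with filterByExpr (minimum count 10, total 15), scaled by TMM and fitted with edgeR 4.0.16 (R 4.3.3) quasi-likelihood models, with 1 mean for each strain and diet group over all 23 libraries, which share the estimate of spread. P-values were adjusted over 20189 genes and called under 0.05. The contrasts were CAST/EiJ minus C57BL/6J on each diet and the difference between those. CPM values use TMM-scaled library sizes. The model was checked on simulated data. The strains, the 40 gene lists and the rules for naming genes were chosen with earlier results of these data known. Named were up to 12 genes of each direction with the largest fold (at least 5 CPM in the higher strain, no overlap), up to 8 of each direction with the highest CPM and at least 2-fold, members of lists (up to 4 with the smallest p, and those needed to account for the list), up to 5 of each direction for the difference between diets, and the 3 windows of 2 Mb with most calls. The conditions of at least 5 CPM and no overlap also held for the genes chosen by highest CPM. Values named for genes that did not pass were chosen after they were seen. Some genes that these rules name are not reported here. Copies were found with blastn 2.17.0+ among annotated transcripts (at least 95% identity over 200 bases and 50% of the shorter). Promoters and their coordinates were RefSeq's. Floors of 3 counts and 95% intervals cover counting error only. Alternatives were DESeq2 1.42.0, RLE scaling, limma 3.58.1 on the deposited values, voom with library weights, no filter, the compared groups alone, an identifier series term, series 82 alone, 2 choices of 3 libraries left out (1 chosen after seeing the data) and each library left out.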

Additional observations from a re-analysis of the deposited data

Results flagged for a closer look

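For 17 genes the strain difference on 44% fat minus that on 10% fat passed the edgeR test of that difference. On the log2 scale it was 0.61 for Acadm, 1.6 for Adgre1, 1.27 for C1qa, 1.30 for C1qb, 1.31 for C1qc, 1.56 for Dnajc15, 1.65 for Fermt3, 2.10 for Igfbp2, 1.37 for Lipa, 2.35 for Lyz2 and 1.21 for Unc93b1, and -1.87 for Hhip, -0.96 for Hook1, -1.35 for Il15ra, -0.97 for Marveld2, -0.70 for Ptch1 and -1.67 for Rab11fip4.

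In 21 of 356 groups of 4 libraries checked, 1 library stood apart. Its gap to its nearest fellow was above 0.83 of the group's range, both taken on log2 CPM rather than CPM. Chance gives about 18 such groups. Gaps above the others in CAST/EiJ were 0.847 of the range for Mx2, 0.914 for Oas2 and 0.891 for Trim30d (library 1), 0.856 for C1qb, 0.863 for Gstm6 and 1.0 for Tmem254b (library 2), 0.915 for Hsd17b7 (library 3), and 0.994 for Ackr3, 0.942 for Fos and 0.904 for H2-T10 (library 4). Gaps below the others in CAST/EiJ were 0.888 for Ccl5, 0.832 for Cdon, 0.85 for Il15ra and 0.969 for Plin1 (library 3) and 0.887 for Igfbp5 (library 2). In C57BL/6J they were 0.928 for Tap1 (library 1) and 0.838 for Hadhb (library 4) above the others, and 0.92 for Bmp4 (library 1), 0.836 for Lhcgr (library 2), 0.885 for H2-Ab1 and 0.958 for Tpm4 (library 4) below them.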

How the results depend on the processing

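The number of genes that differed on 44% fat, 5949, stayed within 1.5 times under 15 of the 18 alternatives, with 5007 to 5398 when 1 library was left out, 6567 with DESeq2 and 7227 with voom. It was 3642 without C57BL/6J library 1 and CAST/EiJ libraries 1 and 2, 3778 without the 3 libraries of the highest adipocyte sums (chosen after seeing the data) and 2810 in series 82 alone, where fewer libraries entered. On 10% fat the count was 4065 when only the groups compared were fitted, and 5594 to 7999 when 1 library was left out. The count for the difference between diets (124, of which 114 positive) was 851 with DESeq2 (548 positive), 49 with an identifier series term, 81 on the deposited variance-stabilised values, 1312 with voom (922 positive), 17 with only the groups compared, and 8 to 877 when 1 library was left out; the cause was not tested. Of 178 genes named, 151 were called on 44% fat, 106 of them under all 18 alternatives, and those 3 fits with fewer libraries lost 34, 30 and 39 of the 151. Cxcl12 reversed its sign without the 3 highest sums (0.07), and no other called gene did so; 5 of the 27 not called passed under some alternative. Of the 17 genes named for the difference between diets, 3 passed under all 22 alternatives: Acadm, Dnajc15 and Fermt3. No paired analysis was possible because the labels give no replicate numbers that pair libraries; a fit with the identifier series as a term gave 5809 genes. Depth limits genes under about 1 CPM, such as most T cell markers, and 0 counts allow up to 0.0201 CPM in CAST/EiJ and 0.019 CPM in C57BL/6J.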
